A study of Mus musculus with 2 samples.

Results

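The nuclei described here are those that the study's own annotation called oligodendrocyte precursor cells (OPCs), from the hippocampus of mice exposed to Gulf War chemicals and from vehicle-treated mice, the 2 groups being labelled GWI (Gulf War Illness) and control. Every gene row of the authors' deposited OPC table was taken, which gave 4475 genes of the 10596 distinct genes that appear over the 9 cell type tables. All mice were male and, per the series description, C57BL/6J. In the sample labels the genotype of the GWI mice is spelled C57/BL7 and that of the control mice C57/BL6. From 10 weeks of age the GWI mice received daily intraperitoneal pyridostigmine bromide (0.7 mg/kg, a reversible cholinesterase inhibitor) together with permethrin (200 mg/kg, a pyrethroid insecticide that acts on sodium channels) for 10 days. The control mice received vehicle over the same days, and both groups were aged to 19 months. Hippocampi of 3 mice were pooled in each group and made into 1 single-nucleus 3′ RNA library, sequenced to at least 25000 reads per nucleus.

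OPCs, also called NG2 glia, are the dividing progenitors of the oligodendrocyte lineage. They are held in the progenitor state by platelet-derived growth factor acting on its alpha receptor, they sense neuronal activity through glutamate and GABA receptors at direct synaptic contacts, and they persist in the adult hippocampus. On differentiation they pass through a committed premyelinating stage and then express the myelin proteins and the lipid and membrane synthesis enzymes that myelin needs.

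For each gene the authors' deposited table gives 2 quantities. The log2 fold change was read as GWI over control from the order of the comparison label, which writes PBS beside both groups where the library names write Veh. The detection is the percentage of OPC nuclei of each library in which the gene was found. Each group is 1 library, so no value has a replicate, a standard deviation or a test, and a difference between the mice cannot be told apart from a difference between the libraries. The deposited p-values treat nuclei as replicates and were not used. How many OPC nuclei each library held is stated nowhere in the labels or files used, so the counting error of each percentage is unknown. A gene is listed only if it was detected in about 10% of the nuclei of at least 1 library and its log2 fold change was at least 0.05 in size. A gene that is not in the table was therefore rare in both libraries or differed little, and was not analysed here. Because of that floor, a gene detected in under 10% of the nuclei of 1 library could be listed only through the other library, where its detection was higher: 595 genes passed through the GWI library alone and 210 through the control library alone.

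By the authors' deposited fold changes 2267 of the 4475 OPC genes were higher in the GWI library (50.7%) and 2208 were lower (49.3%), with a median log2 fold change of 0.05. The median gene was detected in 19.8% of GWI nuclei and 18.1% of control nuclei, and 64.3% of the genes were detected in more of the GWI nuclei. A log2 fold change of 1 or more was reached by 53 genes (1.18%) and of -1 or less by 18 (0.402%), together 1.59%. A smaller size of 0.5 was reached upwards by 433 genes (9.68%) and downwards by 295 (6.59%). The larger sizes lay among the rarely detected genes. In the class detected in 10 to 15% of nuclei, 53 of 1341 genes passed 1 in either direction, against 16 of 1358 genes from 15 to 25%, 1 of 1203 genes from 25 to 50%, 1 of 383 genes from 50 to 75% and 0 of 190 genes above 75%. Of the 53 higher genes, 49 were detected in under 10% of control nuclei, and of the 18 lower genes, 17 were detected in under 10% of GWI nuclei. With predicted genes and clones left aside, the 8 highest were Slc7a1 (1.90), Agbl3 (1.83), Vstm5 (1.81), Atp6v0e2 (1.68), Ap1s2 (1.62), Nrg3os (1.59), Hapln1 (1.52) and Colgalt1 (1.44), each found in 10.2 to 13.7% of GWI nuclei and 2.5 to 4.6% of control nuclei. The 8 lowest were Rpl10a (-2.07), Lgi2 (-1.54), Uchl1 (-1.47), Smarcd3 (-1.34), Cabp1 (-1.33), Phrf1 (-1.25), Zbtb18 (-1.24) and Malt1 (-1.17), found in 2.4 to 7.5% of GWI nuclei and 10.1 to 14.3% of control nuclei. All 16 were thus rare in both libraries.

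**Figure D1:**
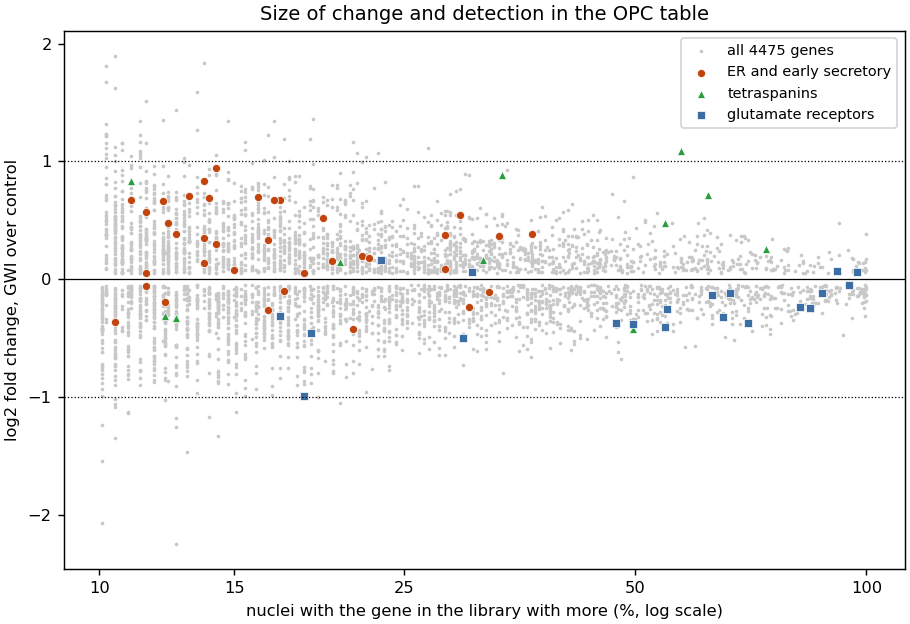
Log2 fold change (GWI over control, vertical axis) of each of the 4475 OPC genes against its detection in the library with more nuclei positive (percent, log axis), with the ER and early secretory, tetraspanin and glutamate receptor genes in colour. Dotted lines mark log2 fold changes of 1 and -1. The points narrow toward high detection, with an SD over genes of 0.49 in the lowest class and 0.16 in the highest.

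The markers of the annotated cell type were listed, all 6 of them. In the authors' deposited table Lhfpl3, a tetraspan membrane protein gene enriched in OPCs, was detected in 99.5% of GWI nuclei and 100% of control nuclei (log2 fold change -0.08). Vcan, the chondroitin sulphate proteoglycan versican, was found in 96.2% of GWI and 95.8% of control nuclei (0.07), and Pdgfra, the receptor that defines the cell type, in 89.5% of GWI nuclei and 91.6% of control nuclei (0.06). Cspg4, which encodes NG2, was found in 63.0% of GWI nuclei and 68.1% of control nuclei (-0.15). Sox10, the lineage transcription factor, was found in 32.2% of GWI nuclei and 31.5% of control nuclei (0.11). The sixth marker, the lineage factor Olig1, differed most, with 44.5% of GWI nuclei and 34.0% of control nuclei (0.51). The other 5 differed by at most 0.15 in size on the log2 scale. Among the 9 tables Pdgfra was listed in the OPC table alone, while Lhfpl3 was also found in 71.1% of GWI and 74.7% of control excitatory neuron nuclei.

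Genes of other cell types were also detected in the OPC nuclei. Of 9 mature oligodendrocyte markers only Mbp was listed, and Mog, Mag and Mobp were not. Of 15 microglial markers 2 were listed, and of 14 endothelial markers only Bsg, which encodes basigin (41.3% of GWI nuclei and 26.1% of control nuclei, 0.64). Of 9 immature neuron markers Dcx and Sox11 were listed, of 12 mural markers Cspg4 alone, and of 9 fibroblast markers Pdgfra alone. Of 11 ependymal and choroid plexus markers 3 were listed, namely Dnah5, Htr2c and Enpp2. Neuronal markers were common: 9 of 13 pan-neuronal markers were listed with a mean detection of 63.0% in GWI nuclei and 62.8% in control nuclei, and 2 of the 9 were higher in the GWI library. Of 12 excitatory neuron markers 7 were listed with a mean detection of 22.7% in GWI nuclei and 25.9% in control nuclei, and 5 of the 7 were lower. Of 12 inhibitory neuron markers 4 were listed, at a mean of 21.3% in GWI nuclei and 21.7% in control nuclei. Of 15 astrocyte markers 8 were listed, at a mean of 38.2% in GWI nuclei and 36.4% in control nuclei, and 7 of the 8 were higher in the GWI library. The authors' deposited tables do not separate transcripts made in a nucleus from free RNA or from mixed nuclei, and the part of these in the values that follow was not tested.

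The genes that define the progenitor were detected in both libraries. Of 44 OPC identity genes 31 were listed in the authors' deposited table, 18 of them higher and 13 lower in the GWI library, with a median of 0.06 against 0.05 over all OPC genes. In more of the GWI nuclei 18 of the 31 were detected, against 64.3% of all OPC genes. The basic helix-loop-helix factors that specify the lineage stood toward the upper end. Olig2 was detected in 22.3% of GWI nuclei and 14.7% of control nuclei (0.66), and Olig1 in 44.5% of GWI nuclei and 34.0% of control nuclei (0.51). These neighbouring genes lie on chr16:91225457-91228677 and chr16:91269772-91271933 of GRCm38. Ednrb, the endothelin B receptor, was found in 60.3% of GWI nuclei and 44.1% of control nuclei (0.47). Cspg5, the proteoglycan neuroglycan C, was found in 92.2% of GWI nuclei and 86.1% of control nuclei (0.48), and Gpr17, a receptor of the transition to premyelinating cells, in 37.3% of GWI nuclei and 27.7% of control nuclei (0.41). These 5 were taken from the upper end of the list, so that their direction was set by the choice. All 5 were also more often detected in the GWI library. Across OPC genes the difference in detection went with the log2 fold change (Spearman's rho 0.86).

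The other identity genes had smaller log2 fold changes. Etv4, an ETS factor downstream of receptor tyrosine kinases, was found in 24.4% of GWI nuclei and 18.5% of control nuclei (0.28). Several genes present in nearly every OPC differed by under 0.2 in size: in the authors' deposited table Ptprz1, a receptor phosphatase, had 0.08, Sox6, a factor that restrains differentiation, also had 0.08, and Dscam, an adhesion molecule, had -0.13. At the low end stood Nkx2-2, a factor of lineage progression found in 9.1% of GWI nuclei and 10.5% of control nuclei (-0.52). Tmem132d, found in 82.0% of GWI nuclei and 87.4% of control nuclei, had -0.29. Megf11, found in 81.2% of GWI nuclei and 82.8% of control nuclei, had -0.25. Cacng4, an AMPA receptor auxiliary subunit, was found in 82.0% of GWI nuclei and 81.1% of control nuclei (-0.24), so its 2 quantities pointed in opposite directions.

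**Figure D2:**
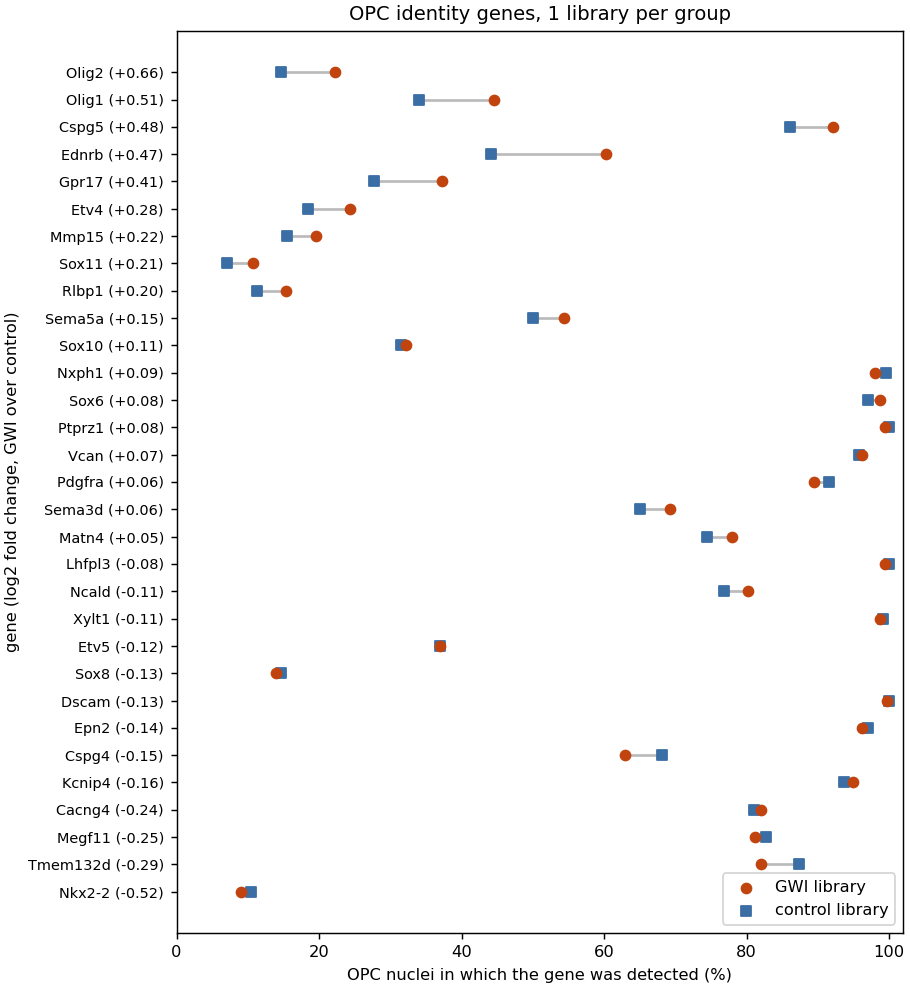
Percentage of OPC nuclei (horizontal axis) in which each of the 31 listed OPC identity genes was detected, with a circle for the GWI library and a square for the control library, ordered by log2 fold change (printed beside each name). Olig2, Olig1, Cspg5, Ednrb and Gpr17 stand at the top with the GWI circle to the right of the control square.

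Genes of differentiation and myelin did not share a direction. Of 30 genes of committed and premyelinating cells 13 were listed in the authors' deposited table, 6 higher and 7 lower, with a median of -0.07. Bcas1, a marker of newly forming oligodendrocytes, was detected in 71.8% of GWI nuclei and 59.2% of control nuclei, with a log2 fold change of only 0.10. Fyn, the kinase that drives early morphological differentiation, had 0.17 (61.9% of GWI nuclei and 59.2% of control nuclei). Tcf7l2, a Wnt-pathway factor of the differentiating cell, had -0.34 (33.0% of GWI and 37.0% of control nuclei), and Sirt2, a deacetylase of myelinating cells, had -0.37 (17.4% of GWI and 20.6% of control nuclei). Itpr2, a calcium release channel used as a premyelinating marker, had -0.07 (80.7% of GWI and 81.5% of control nuclei).

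Of 39 myelin and mature oligodendrocyte genes 14 were listed, 6 higher and 8 lower, with a median of -0.25. By 0.5 or more, 4 of the 14 were lower, against 295 of the 4475 OPC genes (6.59%). Mbp, myelin basic protein, was detected in 22.8% of GWI nuclei and 26.5% of control nuclei (-0.51) in the authors' deposited table. Gsn, the actin-severing protein gelsolin, had -0.66 (11.3% of GWI and 15.5% of control nuclei). Plekhh1 had -0.56 (9.7% of GWI and 12.6% of control nuclei) and Mal, a myelin proteolipid, had -0.40 (8.3% of GWI and 10.1% of control nuclei). Prr5l, an mTORC2-associated protein gene, had -0.86 although it was found in more of the GWI nuclei (12.3%, against 10.9% in control nuclei). The enzymes and proteolipids on the other side were Ugt8a, which makes the myelin lipid galactosylceramide (0.24, 45.6% of GWI nuclei and 39.1% of control nuclei), Fa2h, which hydroxylates its fatty acids (0.27, 15.8% of GWI and 14.3% of control nuclei), and Pllp, plasmolipin (0.35, 39.7% of GWI and 30.3% of control nuclei). Over the 12 listed genes found in at least 10% of the nuclei of both libraries, 6 were higher and the median was -0.02. In the oligodendrocyte table of the same 2 libraries 27 of the 39 were listed, 24 of them higher, with a median of 0.23. Mbp itself was lower in the oligodendrocyte table too (-0.08), as it was in excitatory neurons (-0.38) and astrocytes (-0.17). Among the 9 tables it was higher in that of pericytes alone (0.64). The difference between the 2 tables was not tested.

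Growth factor and patterning pathways were mixed. Of 47 genes of PDGF, FGF and IGF signalling 31 were listed in the authors' deposited table, 15 higher and 16 lower, with a median of -0.05. Ptpn11, the phosphatase SHP2 that carries receptor signals to Ras, was detected in 16.1% of GWI nuclei and 10.1% of control nuclei (0.69). Irs1, the adaptor of insulin and IGF receptors, had 0.57 (16.4% of GWI and 12.2% of control nuclei). Spred1, an inhibitor of Ras and ERK signalling, had 0.31 (58.7% of GWI and 50.4% of control nuclei), and the receptor Igf1r had 0.17 (57.4% of GWI and 49.2% of control nuclei). Among the 16 lower members, whose lowest value was -0.49, the kinase Map2k1 had -0.34 (17.2% of GWI and 19.3% of control nuclei). The PI3-kinase subunit Pik3r1 had -0.32 (45.3% of GWI and 50.4% of control nuclei).

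The Wnt list had 15 of 34 genes listed, 5 of them higher, with a median of -0.11. Its members with the greatest differences in the authors' deposited table were Axin1, the scaffold of the beta-catenin destruction complex (0.73, 13.7% of GWI nuclei and 7.6% of control nuclei), Lgr5, an R-spondin receptor (0.72, 12.9% of GWI and 8.8% of control nuclei), and Ror1, a Wnt5a receptor (-0.66, 13.9% of GWI and 17.6% of control nuclei). Of 28 Notch pathway genes 9 were listed, 4 higher, with a median of -0.09 and values from -0.25 (Notch1) to 0.23 (Ncstn, a gamma-secretase subunit). Of 32 BMP and TGF-beta genes 15 were listed, 7 higher, with a median of -0.08. Proliferation genes were hardly represented, with 6 of 39 listed. Cdk6, a kinase of the G1 phase, was found in 11.3% of GWI nuclei and 13.4% of control nuclei (-0.71), and Rbl2, a retinoblastoma-family repressor of the cell cycle, in 17.2% of GWI nuclei and 11.8% of control nuclei (0.46).

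Genes of the endoplasmic reticulum (ER) and the early secretory route stood mostly higher in the GWI library. Of 66 genes 36 were listed in the authors' deposited table, 28 higher and 8 lower, with a median of 0.34, and 12 were higher by 0.5 or more (433 of the 4475 OPC genes, 9.68%). Their mean detection was 18.1% in GWI nuclei and 14.3% in control nuclei. Among the listed members 12 reached 10% of nuclei in the GWI library alone, so that their detection had to be higher there, and 1 did so in the control library alone. Among the 23 found in at least 10% of the nuclei of both libraries, 17 were higher and the median was 0.16, while over all 3670 OPC genes of that kind 46.3% were higher. Tmed7, a cargo adaptor of COPII and COPI vesicles, was detected in 14.2% of GWI nuclei and 7.1% of control nuclei (0.94). Its family member Tmed2 was detected in 13.1% of GWI nuclei and 6.3% of control nuclei (0.70). Yipf5, a Golgi membrane protein, had 0.83 (13.7% of GWI and 7.1% of control nuclei). Members of the machinery that glycosylates nascent proteins were alongside: Stt3a, the catalytic subunit of the oligosaccharyltransferase, had 0.70 (16.1% of GWI nuclei and 9.2% of control nuclei), and its partner Ddost had 0.69 (13.9% of GWI and 8.4% of control nuclei). The signal peptidase subunit Spcs3 had 0.67 (11.0% of GWI and 6.3% of control nuclei). All 6 of these were under 10% in the control library.

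The 7 members found in 25% or more of the nuclei of either library had a median of 0.37. Other members named here were chosen after their values were seen. Copa, a coat subunit of retrograde vesicles, was found in 29.5% of GWI nuclei and 21.4% of control nuclei (0.54). Sec62, a translocon component, was found in 33.2% of GWI nuclei and 23.9% of control nuclei (0.37). The small GTPase Arf1, which recruits the COPI coat, had -0.37 (8.8% of GWI and 10.5% of control nuclei). Of the astrocyte markers listed in OPC nuclei 7 of 8 were also higher in the GWI library, and their part in these values was not tested.

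Chaperones and folding enzymes were split. Of 59 genes 35 were listed in the authors' deposited table, 19 higher and 16 lower, with a median of 0.08. The ER-resident enzymes Ppib, a prolyl isomerase (chr9:66060222-66066623), and Pdia6, a protein disulphide isomerase, were detected in 34.0% and 30.3% of GWI nuclei and in 18.9% and 17.2% of control nuclei (0.93 and 0.89). Dnaja2, a cytosolic Hsp40 co-chaperone, had 0.76 (21.4% of GWI nuclei and 12.2% of control nuclei). Cct8, a subunit of the cytosolic chaperonin, had -1.17 (7.2% of GWI and 13.9% of control nuclei), Hspd1, the mitochondrial chaperonin, had -0.73 (8.6% of GWI and 13.0% of control nuclei), and St13, an Hsp70-interacting protein gene, had -0.65 (17.4% of GWI and 23.1% of control nuclei). Of the lower 3, Cct8 and Hspd1 were listed through the control library alone.

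The ER stress response element, CCAAT followed after any 9 bases by CCACG, is the textbook binding sequence through which ATF6 and NF-Y act on ER chaperone genes. It was searched on both strands in the 300 bases around each RefSeq gene start (250 before it and 50 after it) and was found in 37 of 27025 promoters (0.137%). Among the 28 of 35 listed chaperone genes with a promoter entry, 6 held it (21.4%). As the element is known from ER chaperone genes, that share is no result of these data. The 27025 promoters, here and below, were not limited to genes of the OPC table. These promoters are shown because the genes that carry the same letters had different values in the OPC nuclei. The 250 bases before the start are printed 5′ to 3′ on the gene's strand, from RefSeq on GRCm38.p6, with the match in capitals.
Pdia6, chr12:17266339-17266588, plus strand: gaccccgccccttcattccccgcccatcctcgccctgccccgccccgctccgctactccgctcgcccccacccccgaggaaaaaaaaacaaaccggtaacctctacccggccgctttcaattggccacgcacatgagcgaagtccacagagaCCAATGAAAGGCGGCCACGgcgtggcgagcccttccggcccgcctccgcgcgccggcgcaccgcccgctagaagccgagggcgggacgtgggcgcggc
Hspa5, chr2:34771840-34772089, plus strand: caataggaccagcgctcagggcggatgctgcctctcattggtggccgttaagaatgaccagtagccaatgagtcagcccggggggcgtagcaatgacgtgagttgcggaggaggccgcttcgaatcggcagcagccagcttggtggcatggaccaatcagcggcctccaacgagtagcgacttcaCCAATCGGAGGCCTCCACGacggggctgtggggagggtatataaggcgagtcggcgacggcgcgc
Canx, chr11:50325674-50325923, minus strand: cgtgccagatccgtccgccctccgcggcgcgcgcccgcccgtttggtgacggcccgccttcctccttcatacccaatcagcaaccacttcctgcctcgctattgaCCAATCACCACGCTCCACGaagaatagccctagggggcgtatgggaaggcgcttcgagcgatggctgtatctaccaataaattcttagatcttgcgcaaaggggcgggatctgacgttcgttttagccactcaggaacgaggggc
The match began 98 bases before the start of Pdia6, 65 before that of Hspa5 and 145 before that of Canx.

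The 6 carriers of the element did not share a direction in the authors' deposited table. Pdia6 had a log2 fold change of 0.89. Calr, the lectin chaperone calreticulin, had 0.28 (32.7% of GWI nuclei and 27.7% of control nuclei), Hsp90b1, the ER Hsp90, had 0.12 (51.5% of GWI and 44.5% of control nuclei), and Dnajc3, a co-chaperone of BiP, had 0.07 (19.0% of GWI and 17.2% of control nuclei). Hspa5, which encodes BiP itself, the main ER Hsp70, had -0.15 (32.2% of GWI nuclei and 29.0% of control nuclei), and Canx, calnexin, had -0.28 (50.9% of GWI and 53.8% of control nuclei). Pdia6 was thus the one carrier past 0.5. The element was found in 0 of 24 ER and early secretory genes with a promoter entry, of 36 listed. There the 8 letters GACGTGGC were found in 4 of 24 (16.7%), against 228 of 27025 promoters (0.844%), and TGACGTGG, which shares 7 of its letters, in 3 of 24 (12.5%), against 193 (0.714%). The genes with GACGTGGC were Sec63 (0.39), Sec23a (0.39), Ssr1 (0.19) and Arf1 (-0.37). A match is a description of these letters and not evidence of binding.

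Lysosomal genes were mostly higher as well, with exceptions among its hydrolases and pump subunits. Of 68 genes 33 were listed in the authors' deposited table, 24 higher and 9 lower, with a median of 0.32. By 0.5 or more, 10 were higher and 3 were lower, against 9.68% and 6.59% of all OPC genes. Through the GWI library alone 8 members were listed, so that their detection had to be higher there, and 1 through the control library alone. Among the 24 found in at least 10% of the nuclei of both libraries, 16 were higher and the median was 0.26. Over all OPC genes of that kind 46.3% were higher. Cd63, a tetraspanin of late endosomes and exosomes, was detected in 33.5% of GWI nuclei and 21.8% of control nuclei (0.88). Scarb2, the membrane protein that delivers glucocerebrosidase to lysosomes, had 0.68 (24.9% of GWI and 16.4% of control nuclei). Lamp1, a main membrane glycoprotein of the lysosome, had 0.59 (40.8% of GWI nuclei and 26.1% of control nuclei) and Ctsb, the protease cathepsin B, had 0.52 (31.1% of GWI and 22.7% of control nuclei), this pair being chosen after its values were seen. On the other side Ctsd, the protease cathepsin D, had -0.92 (11.0% of GWI nuclei and 15.5% of control nuclei). The subunits of the proton pump differed: Atp6v0e2 had 1.68 (10.2% of GWI and 2.9% of control nuclei) and Atp6v0a2 had 0.71 (13.9% of GWI and 8.0% of control nuclei), whereas Atp6v1a, the catalytic subunit, had -0.79 (22.0% of GWI nuclei and 33.6% of control nuclei). Atp6v0e2 and Atp6v0a2 were under 10% in the control library and so were listed through the GWI library alone.

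The palindrome TCACGTGA belongs to the CLEAR family of elements bound by TFEB, a regulator of lysosomal genes. In the same 300-base windows it was found in 3 of 23 lysosomal genes with a promoter entry (13%, 33 genes being listed), against 304 of 27025 promoters (1.12%). As TFEB is known to act on lysosomal genes, that share too is no result of these data. The carriers were Atp6v0e (0.47, 20.6% of GWI nuclei and 15.1% of control nuclei), Atp6v1a and Ctsd, so that 2 of the 3 lowest genes of the list held it. The promoters of that pair are printed in the same way from RefSeq on GRCm38.p6, with the match in capitals.
Atp6v1a, chr16:44139260-44139509, minus strand: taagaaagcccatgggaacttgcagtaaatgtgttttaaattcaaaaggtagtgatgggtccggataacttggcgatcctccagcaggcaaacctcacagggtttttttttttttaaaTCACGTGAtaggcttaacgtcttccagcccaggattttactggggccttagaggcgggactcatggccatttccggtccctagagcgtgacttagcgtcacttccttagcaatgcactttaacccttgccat
Ctsd, chr7:142387828-142388077, minus strand: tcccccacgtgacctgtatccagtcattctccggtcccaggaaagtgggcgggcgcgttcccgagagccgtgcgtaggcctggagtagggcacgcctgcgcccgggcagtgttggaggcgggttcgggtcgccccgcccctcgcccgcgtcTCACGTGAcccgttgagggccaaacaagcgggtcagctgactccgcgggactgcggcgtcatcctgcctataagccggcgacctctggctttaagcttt
The match began 132 bases before the start of Atp6v1a and 99 before that of Ctsd.

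Tetraspanins, the small membrane proteins that organise receptor and integrin domains, held the gene with the greatest difference among those in 50% or more of the nuclei of either library. That gene was Cd9, a progenitor and premyelinating surface protein at chr6:125460266-125494791, detected in 57.4% of GWI nuclei and 34.5% of control nuclei (1.09) in the authors' deposited table. Cd81, its partner at chr7:143052739-143067934, was detected in 62.2% of GWI nuclei and 39.9% of control nuclei (0.71). Tspan31 had 0.83 (11.0% of GWI and 5.9% of control nuclei), Tspan3 had 0.48 (54.7% of GWI nuclei and 42.9% of control nuclei) and Tspan7 had 0.25 (74.0% of GWI and 68.1% of control nuclei). Tspan5, which traffics the protease ADAM10, went the other way with -0.42 (40.8% of GWI nuclei and 49.6% of control nuclei). In all 11 of 23 tetraspanins were listed, 8 higher and 3 lower, with a median of 0.25, while 50.7% of all OPC genes were higher. Among the 10 found in at least 10% of the nuclei of both libraries, 7 were higher, against 46.3% of all OPC genes of that kind. The list median was 0.26 in oligodendrocytes, 0.10 in astrocytes and 0.27 in microglia.

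Lipid genes stood mostly higher in the GWI library. Of 59 cholesterol and fatty acid genes 19 were listed in the authors' deposited table, 15 higher and 4 lower, with a median of 0.30. Through the GWI library alone 6 of the 19 were listed, so that their detection had to be higher there, and 0 through the control library alone. Among the 13 found in at least 10% of the nuclei of both libraries, 9 were higher and the median was 0.28, while 46.3% of all OPC genes of that kind were higher. Abca1, the transporter that loads cholesterol onto apolipoproteins (chr4:53030787-53159895), was detected in 61.4% of GWI nuclei and 43.3% of control nuclei (0.52). Apoe, the lipid carrier, had 0.36 (68.6% of GWI and 56.7% of control nuclei), and its receptor Lrp1 had 0.19 (68.4% of GWI and 65.1% of control nuclei). Acsl3, which activates long-chain fatty acids, had 0.61 (31.4% of GWI nuclei and 23.9% of control nuclei), and Scd2, the desaturase of the brain, had 0.28 (61.9% of GWI and 47.5% of control nuclei).

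Of the synthesis enzymes, Msmo1, a sterol methyl oxidase, was detected in 10.5% of GWI nuclei and 4.6% of control nuclei (1.004) in the authors' deposited table. Cyp51, lanosterol demethylase, had 0.30 (12.3% of GWI and 9.2% of control nuclei). The transcription factors that drive them, Srebf2 and Srebf1, had 0.35 (19.8% of GWI nuclei and 13.9% of control nuclei) and 0.43 (10.5% of GWI and 7.1% of control nuclei). Msmo1, Cyp51 and Srebf1 were under 10% in the control library and so were listed through the GWI library alone. The enzymes on the lower side included Elovl6, a fatty acid elongase (-0.35, 44.8% of GWI nuclei and 49.2% of control nuclei), and Fads2, a desaturase (-0.20, 24.4% of GWI and 24.8% of control nuclei). The letters TCACNCCAC of the sterol regulatory element were found in 0 of the 16 of these 19 genes that had a promoter entry, against 388 of 27025 promoters (1.44%).

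**Figure D3:**
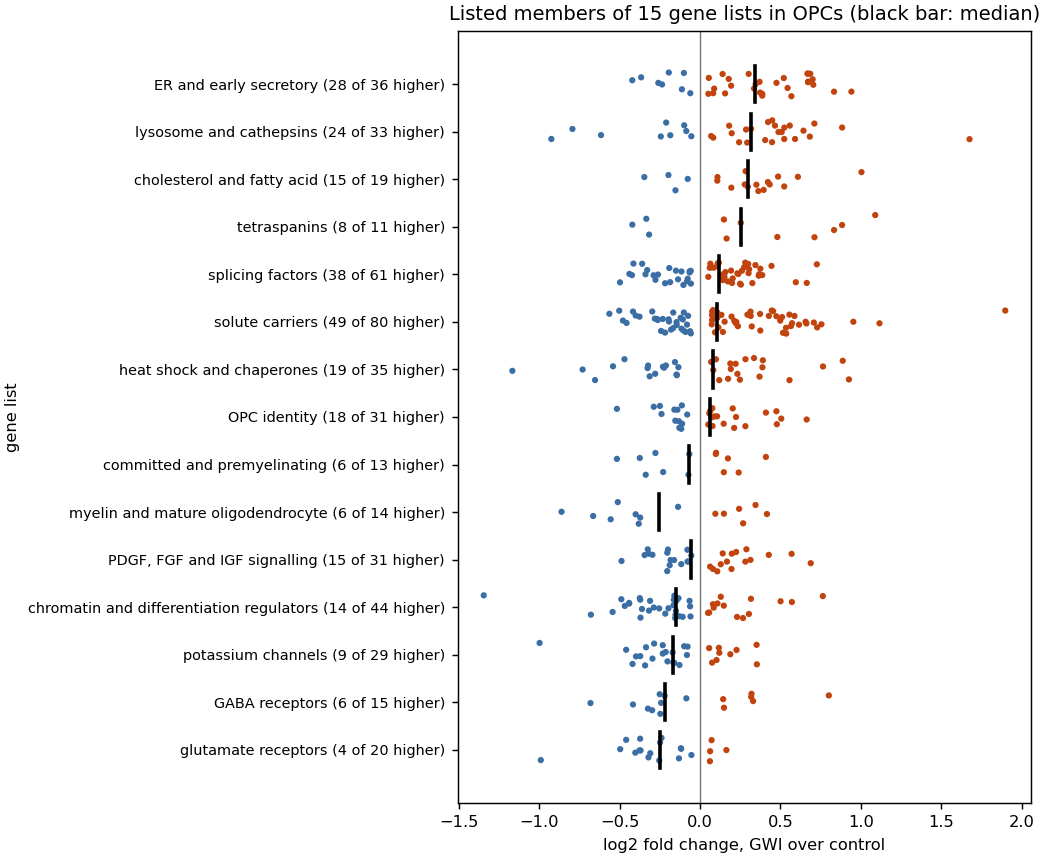
Log2 fold changes (GWI over control) of the listed members of 15 gene lists in OPCs, 1 point per gene, with a black bar at each median and the count of higher members beside each name. The medians run from 0.34 for ER and early secretory genes to -0.25 for glutamate receptors and for myelin genes.

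Glutamate receptor genes, through which OPCs sense neurons, stood mostly lower in the GWI library. Over all OPC genes 50.7% were higher, and among the 876 with the greatest annotated length 35.4%. Of 36 glutamate receptor genes and auxiliary subunits 20 were listed in the authors' deposited table, 4 higher and 16 lower, with a median of -0.25, and all 20 were found in at least 10% of the nuclei of both libraries. Cacng8, an AMPA receptor auxiliary subunit, was detected in 10.5% of GWI nuclei and 18.5% of control nuclei (-0.99). Gria1, an AMPA receptor subunit, had -0.40 (46.1% of GWI and 54.6% of control nuclei). The kainate receptor subunits Grik5 and Grik3 had -0.50 (24.1% of GWI nuclei and 29.8% of control nuclei) and -0.38 (39.7% of GWI and 49.6% of control nuclei), and their auxiliary protein Neto1 had -0.37 (65.7% of GWI and 70.2% of control nuclei). In the other glial tables of the same 2 libraries 0 of 14 listed members of the list were higher in oligodendrocytes (median -0.33), 6 of 25 in astrocytes (-0.16) and 3 of 15 in microglia (-0.24). The 7 excitatory neuron markers listed in OPC nuclei had a median of -0.30, with 5 lower and 2 higher. Camk2a was found in 30.6% of GWI nuclei and 41.6% of control nuclei (-0.55). The 2 higher markers were Prox1 (0.22, 17.4% of GWI and 14.7% of control nuclei) and Slc17a7 (0.11, 14.2% of GWI and 12.6% of control nuclei). Grin2b (-0.25) is both one of the 7 markers and a glutamate receptor gene. The part of neuronal RNA in the receptor values was not tested.

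Inhibitory receptors were divided. Of 19 GABA receptor and chloride transporter genes 15 were listed, 6 higher and 9 lower, with a median of -0.22. Of all OPC genes 49.3% were lower. Gabrg1, a subunit of GABA-A receptors, was detected in 20.4% of GWI nuclei and 11.8% of control nuclei (0.80) in the authors' deposited table. Gabrb1 and Gabra3, also GABA-A subunits, had 0.33 (70.0% of GWI and 65.5% of control nuclei) and 0.32 (28.7% of GWI and 20.2% of control nuclei). Gabbr2, a subunit of the metabotropic GABA-B receptor, had -0.68 (39.4% of GWI nuclei and 47.9% of control nuclei), and the chloride exporter Slc12a5 had -0.42 (13.1% of GWI and 16.4% of control nuclei).

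Of 50 potassium channel genes 29 were listed, 9 higher and 20 lower, with a median of -0.17. Their detection did not go the same way, as 15 of the 29 were detected in more of the GWI nuclei. Among all OPC genes 49.3% were lower and 64.3% were detected in more of the GWI nuclei. In the authors' deposited table Kcnd3, an A-type channel, had -0.37 (63.0% of GWI and 70.6% of control nuclei), and Kcna6 had 0.35 (17.7% of GWI nuclei and 12.6% of control nuclei). Sodium channels are the targets of permethrin. Of 15 genes 6 were listed, 3 higher and 3 lower, and Scn1a had -0.24 (44.5% of GWI nuclei and 47.1% of control nuclei). In more of the GWI nuclei 5 of these 6 genes were detected. Of 16 voltage-gated calcium channel genes 8 were listed, 3 higher and 5 lower, with a median of -0.06, and 5 of the 8 were detected in more of the GWI nuclei. Pyridostigmine acts on acetylcholinesterase. Of 24 cholinesterase and acetylcholine receptor genes 2 were listed, the muscarinic receptor Chrm3 (-0.15) and the nicotinic subunit Chrna7 (-0.22).

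Surface, matrix, guidance and synaptic vesicle lists had medians from -0.16 to 0.06, against 0.05 over all OPC genes. Of 84 proteoglycan and matrix genes 30 were listed in the authors' deposited table, 16 higher, with a median of 0.06. Hapln1, the link protein that ties proteoglycans to hyaluronan, was detected in 11.5% of GWI nuclei and 3.8% of control nuclei (1.52), and Sdc3, a heparan sulphate proteoglycan, in 51.5% of GWI nuclei and 37.8% of control nuclei (0.48). The heparan sulphotransferases Hs6st2 and Hs3st4 had -0.74 (13.7% of GWI and 18.5% of control nuclei) and -0.54 (19.8% of GWI and 26.5% of control nuclei). Of 55 semaphorin, plexin and guidance genes 25 were listed, 8 higher and 17 lower, with a median of -0.13. By 0.5 or more, 4 of the 25 were lower and 0 higher, against 6.59% and 9.68% of all OPC genes. Sema5b had -0.62 (40.2% of GWI nuclei and 47.5% of control nuclei) and the semaphorin receptor Plxna4 had -0.54 (28.7% of GWI and 36.6% of control nuclei), while Plxnc1 had 0.48 (28.4% of GWI and 20.6% of control nuclei). Of 67 adhesion and synaptogenic genes 46 were listed, 19 higher, with a median of -0.06, and of 43 cadherins and protocadherins 27 were listed, 11 higher, with a median of -0.11. The adhesion list ran from -1.54 for Lgi2, a secreted leucine-rich repeat protein (4.6% of GWI nuclei and 10.1% of control nuclei), to 0.91 for Lrrtm2, a synapse-organising protein (14.7% of GWI nuclei and 8.4% of control nuclei), and the lowest cadherin was Cdh22 (-0.93, 6.4% of GWI and 10.1% of control nuclei). Of 46 synaptic vesicle genes 27 were listed, 11 higher, with a median of -0.16.

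Nuclear regulators were divided between chromatin and splicing. Of 62 chromatin and differentiation regulators 44 were listed in the authors' deposited table, 14 higher and 30 lower, with a median of -0.15. The Polycomb methyltransferases Ezh2 and Ezh1 stood above the list, with 0.76 (15.8% of GWI nuclei and 9.7% of control nuclei) and 0.50 (16.6% of GWI and 10.1% of control nuclei), as did the deacetylase Hdac2 with 0.57 (17.2% of GWI and 11.8% of control nuclei). The SWI/SNF subunit Smarcd1 had -0.68 (11.5% of GWI nuclei and 15.5% of control nuclei). Of 80 splicing factors 61 were listed, 38 higher and 23 lower, with a median of 0.12. The SR proteins Srsf3, Srsf1 and Srsf10 were detected in 28.7%, 27.6% and 25.2% of GWI nuclei and in 17.6%, 18.1% and 18.1% of control nuclei (0.73, 0.66 and 0.60). Nova2, a neuronal splicing factor, had -0.50 (19.8% of GWI nuclei and 28.2% of control nuclei). Of 39 thyroid, retinoid and other nuclear receptor genes 15 were listed, 5 higher, with a median of -0.08, and of 20 listed long noncoding RNAs 8 were higher, with a median of -0.21.

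Metabolic, transport and stress lists were small or mixed. Of 186 solute carriers 80 were listed in the authors' deposited table, 49 higher and 31 lower, with a median of 0.11. Through the GWI library alone 20 of them were listed, so that their detection had to be higher there, and 3 through the control library alone. Among the 57 found in at least 10% of the nuclei of both libraries, 29 were higher and 28 lower, with a median of 0.07. Slc30a5, a zinc transporter that supplies enzymes of the secretory route (chr13:100802648-100833427), was detected in 26.8% of GWI nuclei and 12.6% of control nuclei (1.12). It was the gene with the highest log2 fold change among those found in 25% or more of the nuclei of either library. Of 75 cytosolic ribosomal protein genes 4 were listed and all 4 were lower, while 49.3% of all OPC genes were lower. Through the control library alone 1 of the 4 was listed, so that its detection had to be lower in the GWI library. Of 13 mitochondrially encoded genes 8 were listed, 3 higher, and of 66 nuclear-encoded oxidative phosphorylation genes 8 were listed, 5 higher. Of 31 glycolysis genes 11 were listed, 5 higher, with Gapdh, the glyceraldehyde-phosphate dehydrogenase, at -0.86 (7.0% of GWI nuclei and 11.8% of control nuclei). Of 62 antigen presentation and interferon genes 11 were listed, 5 higher, from -0.93 for the interferon receptor subunit Ifnar2 (9.9% of GWI and 16% of control nuclei) to 0.58 for Socs5 (14.2% of GWI and 9.2% of control nuclei). Of 30 glucocorticoid receptor and target genes 8 were listed, 2 higher, of 25 clock genes 12 were listed, 6 higher, and of 26 immediate early genes 2 were listed, both higher. Of 68 microtubule and motor genes 46 were listed, 21 higher, with a median of -0.08.

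Genes outside the lists also stood out among those found in 25% or more of the nuclei of either library, of which 45.7% were higher, 3.1% by 0.5 or more and 1.97% lower by that size. Rsrp1, an arginine- and serine-rich nuclear protein gene, had the widest difference in detection of the table, with 49.6% of GWI nuclei and 26.5% of control nuclei (0.87) in the authors' deposited table. Chaserr, a long noncoding RNA next to Chd2, had 0.79 (26.0% of GWI and 14.7% of control nuclei). Erp44, a thiol chaperone that cycles between ER and Golgi, had 0.77 (29.5% of GWI nuclei and 16.8% of control nuclei), and Gm2a, the activator of ganglioside breakdown in lysosomes, had 0.75 (29.2% of GWI and 16% of control nuclei). Arl2bp, a binding partner of the GTPase Arl2, had 0.79 (25.7% of GWI and 17.2% of control nuclei). Nktr, a cyclophilin with a serine-rich tail, and Rasal2, a Ras GTPase activator, were also detected in many more GWI nuclei, with 55.8% and 62.5% of GWI nuclei and 37.8% and 45.0% of control nuclei (0.48 and 0.39).

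On the lower side, Myh10, the non-muscle myosin IIB heavy chain, was detected in 19.3% of GWI nuclei and 29.8% of control nuclei (-0.73) in the authors' deposited table. Nos1ap, an adaptor of neuronal nitric oxide synthase, had -0.66 (29.2% of GWI and 36.6% of control nuclei), and Lrfn2, a synaptic adhesion protein, had -0.61 (25.5% of GWI and 35.3% of control nuclei). Sik2, a salt-inducible kinase, had -0.60 (32.2% of GWI nuclei and 41.2% of control nuclei). Usp29, Ttll5, Foxj3, Ric8b and Ctdspl completed the 12 lowest, between -0.65 and -0.59. With predicted genes left aside, the widest detection differences on this side were those of Dlgap2, a postsynaptic scaffold protein (-11.7 percentage points), Atp6v1a (-11.6), Camk2a (-11.0) and the G protein subunit Gnao1 (-10.9).

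The direction of a gene in the authors' deposited table went with its length, as taken from the GENCODE M21 annotation for 4378 of the 4475 genes. In the shortest of 5 equal classes, with a median length of 17.6 kb, 65.2% of the genes were higher in the GWI library and the median log2 fold change was 0.19. In the next classes the share was 56.8% (median length 37.3 kb), 53.3% (62.5 kb) and 43.1% (108 kb), and in the longest (277 kb) it was 35.4% with a median of -0.11. Across genes, which are not independent replicates, Spearman's rho between length and log2 fold change was -0.22. Longer genes were also detected more often. In the library with more, the median detection was 14.2% of nuclei in the shortest class and 44.1% in the longest. The share of higher genes was 54.3% among genes detected in 10 to 15% of nuclei and 34.2% among those above 75%. Length and detection were not separated here. The ER and early secretory genes had a median length of 28.3 kb, the lysosomal genes 25.1 kb and the glutamate receptor genes 303 kb. After the median of each gene's own length class was subtracted, a step chosen after seeing the data, the list medians were 0.24 for ER and early secretory genes, 0.23 for lysosomal genes, 0.34 for tetraspanins, 0.19 for lipid genes, -0.18 for glutamate receptors, 0.03 for splicing factors and -0.07 for chaperones. Of these 7 lists the chaperones alone turned the sign of their median, and that of the splicing factors came close to 0.

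**Figure D4:**
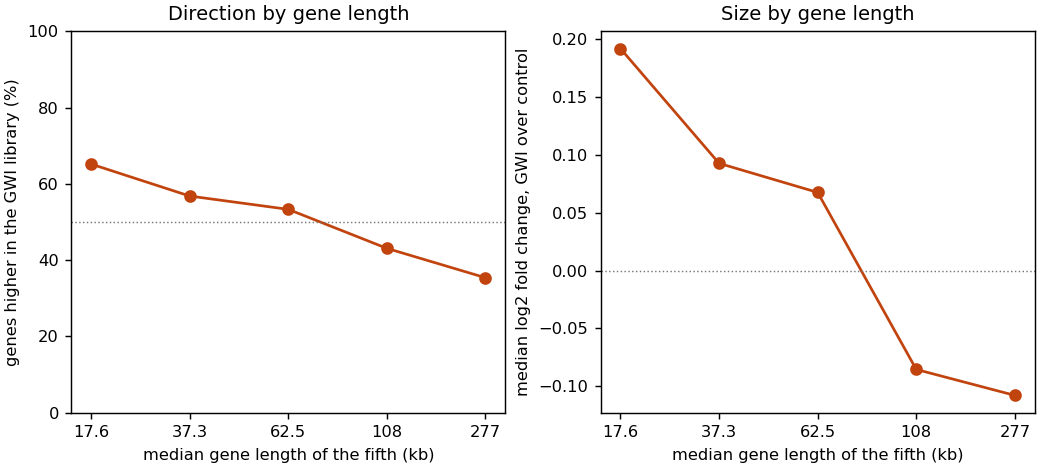
Share of OPC genes higher in the GWI library (left, percent) and median log2 fold change, GWI over control (right), in 5 equal classes of gene length, labelled by their median length in kb. The share runs from 65.2% in the shortest class to 35.4% in the longest, and the median from 0.19 to -0.11.

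Many of these values had counterparts in the other cell types, whose tables come from the same 2 libraries and so share any difference between them. In the authors' deposited tables Cd81 had 0.71 in OPCs, 0.68 in oligodendrocytes, 0.48 in astrocytes and 0.92 in microglia. Cd9 had 1.09 in OPCs, 0.80 in oligodendrocytes and 0.99 in microglia. Lamp1 had 0.59 in OPCs and 0.54, 0.43 and 0.61 in oligodendrocytes, astrocytes and microglia, and Rsrp1 had 0.87 in OPCs and 0.47, 0.56 and 0.44 in the same order. Other genes stood further apart. Pdia6 had 0.89 in OPCs, 0.08 in astrocytes and 0.40 in microglia, Erp44 had 0.77 in OPCs, 0.12 in oligodendrocytes and 0.06 in astrocytes, and Ednrb had 0.47 in OPCs and -0.10 in astrocytes. Ctsd had -0.92 in OPCs, 0.07 in astrocytes and 0.33 in microglia, and Atp6v1a had -0.79 in OPCs, -0.08 in oligodendrocytes and -0.11 in microglia. Olig1, detected in 12.9% of GWI and 8.1% of control oligodendrocyte nuclei, had 0.62 there and 0.51 in OPCs. For whole lists, the ER and early secretory median was 0.34 in OPCs, 0.18 in oligodendrocytes, 0.17 in astrocytes and 0.26 in microglia, over 36, 7, 35 and 18 listed genes, and the lysosomal median was 0.32, 0.30, 0.18 and 0.27 in the same order. None of these differences between cell types was tested.

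**Figure D5:**
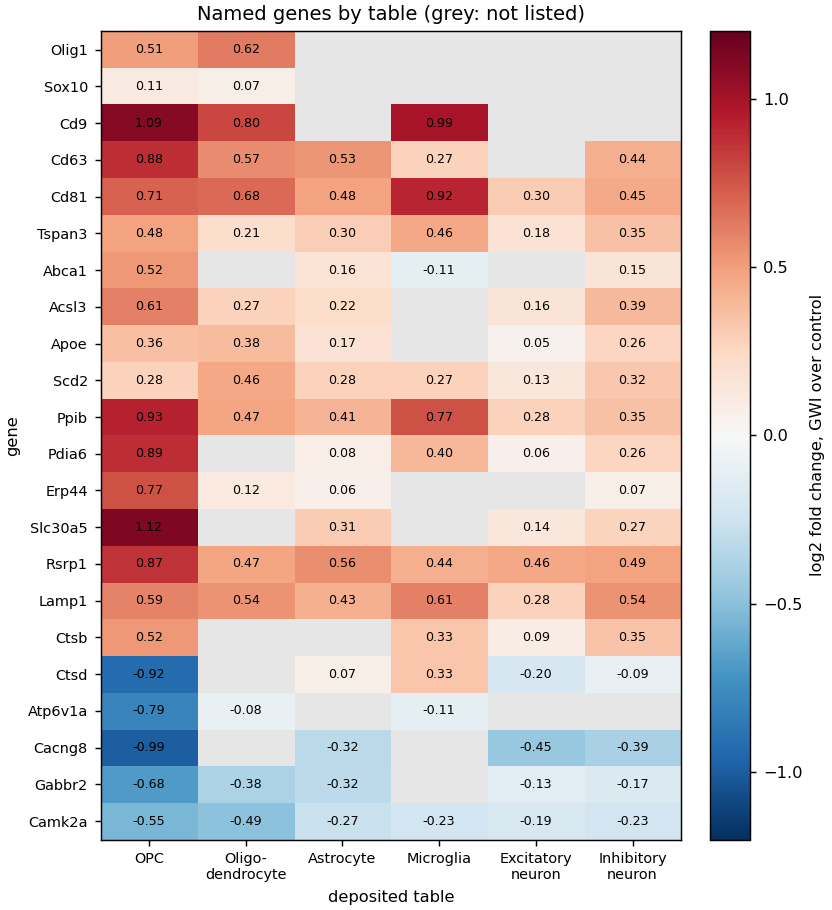
Log2 fold change (GWI over control, colour and printed value) of 22 named genes in the OPC table and in 5 other tables of the same libraries, with grey where a table does not list the gene. Cd81 is positive in OPCs and the other 3 glial tables, while Ctsd and Atp6v1a have their lowest values in the OPC column.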

How the data were processed

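Single-nucleus 3′ libraries were processed with Cell Ranger on GRCm38 (mm10), per the submitters' processing notes, whose version the sources used here leave out. The authors deposited 1 table per cell type with a log2 fold change, detection as a fraction of nuclei in each library, and p-values over nuclei, per the file headers. Cell names are the authors' annotation, and the sources used here say nothing of doublets. The log2 fold changes were used as deposited, detection was converted to percent, and p-values were left out because each group is 1 library. Counts, medians and shares were computed with Python 3.11.15, pandas 2.3.3 and numpy 2.4.6, plots with matplotlib 3.10.9, and the list summary was tested on simulated data. Gene lengths and coordinates came from GENCODE M21 by symbol, and promoters from RefSeq.

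The members, the 38 gene lists and the 12 marker lists were chosen with earlier results of these data known. Named genes were the 12 highest and 12 lowest among genes in 25% or more of the nuclei of either library, the 8 highest and 8 lowest at any detection, the 6 widest detection differences, any listed gene of the lineage, lipid, tetraspanin and growth factor lists, and up to 6 per other list. Genes named through a promoter match, and Copa, Sec62, Lamp1, Ctsb and the lesser members of other lists, were picked with their values in view. Some listed genes are not reported here.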

Additional observations from a re-analysis of the deposited data

How the results depend on the processing

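No paired analysis was possible because each group is 1 library. The 53 OPC genes higher by 1 or more became 433 at a size of 0.5, 2 among genes in 25% or more of the nuclei of either library, 35 after subtracting each gene's median in the other tables, 34 after subtracting the median of its length class and 4 among genes in at least 10% of the nuclei of both libraries. The 18 lower genes became 295, 0, 26, 33 and 1 in the same order of settings, the 0 being a count by size without any test. The table median of 0.053 became -0.066 under the 25% minimum, -0.069 under the both-libraries minimum, 0.052 without predicted, clone and mitochondrial names and 0.021 as a mean. The length and both-libraries settings were chosen after seeing the data. Of 127 named genes of 0.5 or more in size, Prr5l reversed in detection (1.4 percentage points), and Bc1 (0.023) and Olig1 (-0.12) reversed after subtracting the other tables, in which Olig1 is listed for oligodendrocytes. Of the 218 named genes under 0.5, 31 had a detection difference of the other sign, 29 of 206 turned after subtracting the other tables, 15 after the length step and 1 when centred. Of 42 list medians, 21 changed sign as detection differences, 12 after subtracting the other tables, 11 after the length step, 3 as means and 1 when centred, as did 5 of 41 under the both-libraries minimum and 1 of 34 under the 25% minimum. The cause was not tested. Detection in 10 to 15% of nuclei, with unknown numbers of nuclei, limits the larger fold changes.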
